A study of Arabidopsis thaliana with 9 samples.

Results

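The genes described here make tryptophan and turn it into indolic defence compounds in Arabidopsis thaliana roots: 8 genes of tryptophan synthesis, 2 of indole-3-acetaldoxime formation, 8 of the core steps of indole glucosinolate synthesis, 6 of indole ring modification, 4 of camalexin and related nitriles, 3 MYB regulators, and the myrosinase PEN2 and transporter PEN3. They were chosen by gene identifier for their place in the pathway, with earlier results of these data known, and make up 33 of the 32833 genes listed. RNA was sequenced from roots of 4- to 5-day-old seedlings of a single T3 line, STZ-OE #2, which carries p35S::XVE>>pLexA::STZ in Col-0. Estradiol thus induces the zinc finger repressor STZ from the LexA promoter through XVE, which is itself under a constitutive promoter. All 9 libraries were from this line: 3 mock libraries (ethanol, 24 h), 3 libraries of 20 µM estradiol for 6 h and 3 libraries of 20 µM estradiol for 24 h. Estradiol-treated seedlings without the transgene were not analysed here, so an effect of estradiol itself cannot be told apart from that of STZ, and the 6 h libraries differ from mock also in the duration of treatment.

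Tryptophan is made from chorismate in the plastid. Cytochromes P450 of the CYP79B family convert it to indole-3-acetaldoxime, a branch point from which CYP83B1 leads to indole glucosinolates and the CYP71A enzymes lead to indole-3-acetonitrile, camalexin and other nitriles. Indole glucosinolates are stored in roots and shoots and are released as toxic products by myrosinases, and camalexin is the main phytoalexin of Arabidopsis. The MYB factors MYB34, MYB51 and MYB122 activate the genes from tryptophan synthesis to the core glucosinolate steps.

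The libraries held 24375822 to 31299634 exon reads. STZ itself was at 18.8 to 29.8 CPM (counts scaled to the same library total, by the TMM method) in mock, reached 1015 to 1277 CPM at 6 h and lay at 9580 to 12562 CPM at 24 h, where replicate 3 was the lowest. The summed level of 9 root markers was 15916 to 16746 CPM in mock libraries, 18340 to 19172 at 6 h and 10604 to 12701 at 24 h, most of it from PYK10, a beta-glucosidase gene that is also in a related list below. The other 8 summed to 591 to 693 CPM in mock libraries, 461 to 673 at 6 h and 474 to 658 at 24 h, where the groups overlapped. At 6 h against mock 0 of these 8 rose and 1, TIP2;3, fell, and at 24 h against mock SCR and MYB36 rose and TIP2;3 fell. The summed level of 9 shoot markers, mostly photosynthesis genes, was 173 to 181 CPM in mock libraries, 40.4 to 45.3 at 6 h and 37.9 to 45.8 at 24 h, with FIL at 0 reads in mock and at 6 h and at a mean of 2.22 CPM at 24 h. The 4 flower and seed markers summed to 0.707 to 1.14 CPM in all 9 libraries. Shoot marker levels and PYK10 thus moved with the groups, and their part in the results below was not tested. In bulk root tissue, fewer cells of a type and less RNA per cell cannot be told apart.

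Most tested members were called higher after 6 h, and after 24 h against mock as many were called higher as lower. A gene was called when its adjusted p was under 0.01 and its change was at least 1.5-fold (edgeR's quasi-likelihood test with Benjamini-Hochberg adjustment over all 20272 tested genes). At 6 h against mock 20 of 32 tested members rose and 0 fell, where 5.43% of all tested genes rose, 7.71% fell and 13.1% were called in either direction. At 24 h against mock 8 members rose and 8 fell, beside 17.6%, 18% and 35.5% of all tested genes called higher, lower and in either direction. These 16 were 50% of the tested members, beside 53.2% of the tested genes of the related lists below. A near-even split was also that of all genes, as 49.5% of all genes called at 24 h against mock were higher. Between the time points 2 members rose and 17 fell from 6 h to 24 h, beside 14.1%, 10.5% and 24.6% of all tested genes. Of the genes called between the time points, 57.3% were higher at 24 h with TMM scaling and 44.6% with upper-quartile scaling.

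The median log2 change of the members was 0.77 at 6 h and -0.20 at 24 h, both against mock, and -0.81 from 6 h to 24 h. The median over all tested genes lay between -0.02 and 0.00 in the 3 comparisons. Both comparisons with mock share the same 3 mock libraries. The commonest course, seen in 8 members, was a rise at 6 h, a fall from 6 h to 24 h and no call at 24 h against mock. The next were 6 members called only in the 24 h comparisons, lower in both, and 5 that rose at 6 h and 24 h with no call between these times. Another 2, CYP79B2 and CYP81F2, rose at 6 h and fell at 24 h, both against mock. The 5 members that were tested and called in none of the comparisons were PAI1, GSH1, SUR1, CYP81F3 and PEN2.

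**Figure D1:**
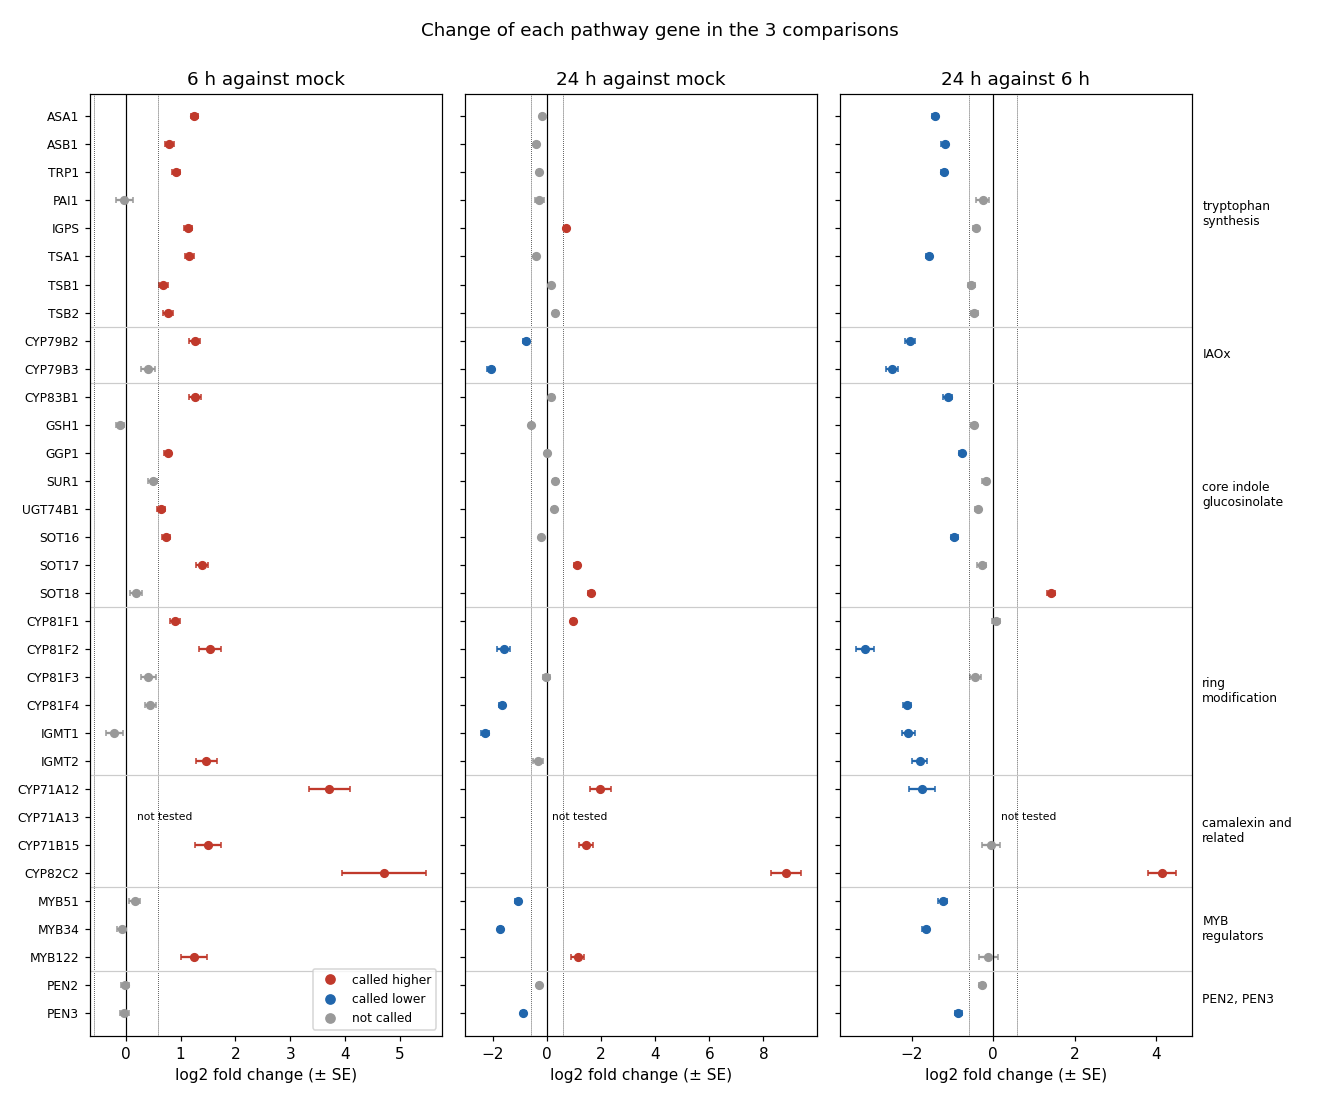
Log2 fold change (points) with its SE (bars) for the 33 pathway genes, ordered by step, in the 3 comparisons; red points were called higher, blue points lower, grey points were not called, and dotted lines mark 1.5-fold. At 6 h the 20 called genes all lie to the right of 0, while at 24 h against mock 8 lie to the right and 8 to the left.

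Of the 8 genes of tryptophan synthesis, 7 rose and 0 fell at 6 h, 1 rose and 0 fell at 24 h against mock, and 4 fell from 6 h to 24 h. ASA1 (AT5G05730), the alpha subunit of anthranilate synthase, which catalyses the first committed step, was at 33.2, 30.8 and 32.3 CPM in mock, 81.3, 76.3 and 71.5 CPM at 6 h and 30.3, 27.6 and 27.2 CPM at 24 h. All 6 h libraries were far above all others, and those at 24 h lay just under mock without overlap. The log2 change was 1.25 ± 0.07 (SE) at 6 h (edgeR adjusted p = 3.91e-07) and -0.18 ± 0.07 at 24 h (edgeR adjusted p = 0.0492, not called).

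The other enzymes of this branch were ASB1 (AT1G25220, the beta subunit of anthranilate synthase), TRP1 (AT5G17990, anthranilate phosphoribosyltransferase), IGPS (AT2G04400, indole-3-glycerol phosphate synthase), TSA1 (AT3G54640, the alpha subunit of tryptophan synthase) and its beta subunits TSB1 (AT5G54810) and TSB2 (AT4G27070). They rose at 6 h by 0.69 (TSB1) to 1.16 (TSA1) on the log2 scale. TSA1 was at 125, 126 and 133 CPM in mock, 295, 296 and 266 CPM at 6 h and 103, 96.5 and 88.5 CPM at 24 h. Its fall from 6 h to 24 h, -1.57 ± 0.08 on the log2 scale (edgeR adjusted p = 1.85e-08), was the largest of the branch, and ASA1, ASB1 and TRP1 fell as well (log2 -1.43, -1.19 and -1.20).

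IGPS was the only one of the 8 that was still called at 24 h against mock. It was at 49.1, 44.0 and 47.0 CPM in mock, 99.1, 109 and 99.1 CPM at 6 h and 79.2, 76.5 and 71.9 CPM at 24 h, with a log2 change of 0.70 ± 0.07 at 24 h (edgeR adjusted p = 3.12e-06). TSB1 and TSB2 did not pass the thresholds from 6 h to 24 h (log2 -0.54 and -0.46), and the TSB1 value lay so near the fold limit that upper-quartile scaling called it lower at -0.64. Per length, TSB1 stood 9.02 to 11.8 times above TSB2 in RPKM (the authors' reads per kilobase of exon, set against all mapped reads of the library) over the 9 libraries, and the coding sequences of both are 83.4% identical. PAI1 (AT1G07780, phosphoribosylanthranilate isomerase) was at 10.6 to 20.4 CPM in all libraries and was not called. Its coding sequence is 99.4% identical to that of PAI2, and 69.8% of its reads were unique, so that reads of both copies could be exchanged. PAI2, which is no member, rose at 6 h by 0.86 ± 0.11 on the log2 scale (edgeR adjusted p = 0.000137).

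CYP79B2 and CYP79B3, which form indole-3-acetaldoxime from tryptophan, were lower at 24 h than in mock, while 0 of the 8 tryptophan synthesis genes were called lower. CYP79B2 (AT4G39950) was at 114, 121 and 131 CPM in mock, 320, 249 and 304 CPM at 6 h and 72.2, 61.9 and 78.3 CPM at 24 h. The groups did not overlap, with a rise of 1.25 ± 0.11 at 6 h (edgeR adjusted p = 6.29e-06) and a fall of -0.78 ± 0.11 at 24 h (edgeR adjusted p = 4.88e-05), both log2 against mock. CYP79B3 (AT2G22330) was at 230, 223 and 214 CPM in mock, 311, 242 and 327 CPM at 6 h and 53.4, 42.2 and 61.6 CPM at 24 h.

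For CYP79B3 the 6 h libraries lay above mock without overlap, but the change of 0.40 ± 0.13 did not pass (edgeR adjusted p = 0.0305), and at 24 h it fell by 2.08 ± 0.14 (edgeR adjusted p = 1.22e-07). The relative level of this pair of genes, 78.1% identical in coding sequence, shifted with time. The RPKM of CYP79B2 was 0.518 to 0.643 times that of CYP79B3 in mock, 0.974 to 1.08 times at 6 h and 1.33 to 1.54 times at 24 h, so that the ranges of the 3 groups did not overlap.

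Of the 8 core genes of indole glucosinolate synthesis, 5 rose and 0 fell at 6 h, and 2 rose and 0 fell at 24 h against mock. CYP83B1 (AT4G31500), which oxidises indole-3-acetaldoxime and so commits it to glucosinolates, had a mean of 350 ± 8.25 CPM in mock, against 841 ± 43.9 at 6 h and 388 ± 69.4 at 24 h (SD, n = 3). It rose by 1.27 ± 0.11 on the log2 scale at 6 h (edgeR adjusted p = 6.51e-06) and fell by 1.12 ± 0.11 between the time points. GGP1 (AT4G30530), a gamma-glutamyl peptidase that trims the glutathione conjugate, and UGT74B1 (AT1G24100), the glucosyltransferase, rose by 0.77 and 0.64 at 6 h. SUR1 (AT2G20610), the C-S lyase, had a log2 change of 0.49 at 6 h, under the fold limit. GSH1 (AT4G23100), glutamate-cysteine ligase, which makes the precursor of glutathione, had -0.11 at 6 h and -0.58 ± 0.07 at 24 h, with a fold of 1.498 just inside the limit of 1.5. It was called lower at 24 h under 8 of the 22 alternative settings.

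The 3 sulfotransferases of the last core step took different courses. SOT16 (AT1G74100), which prefers indolic substrates, had a mean of 124 ± 6.48 CPM in mock, against 205 ± 6.77 at 6 h and 106 ± 9.30 at 24 h (SD, n = 3), and fell by 0.95 on the log2 scale between the time points. SOT17 (AT1G18590) and SOT18 (AT1G74090) prefer aliphatic substrates. SOT17 rose at both times, from 16.5 ± 2.68 CPM to 43.3 ± 3.20 and 35.6 ± 3.82 CPM.

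SOT18 was at 28.5, 21.5 and 22.8 CPM in mock, 27.8, 25.7 and 29.4 CPM at 6 h and 80.9, 66.1 and 74.6 CPM at 24 h. Mock and 6 h overlapped and all 24 h libraries were far above both. It rose by 1.61 ± 0.11 at 24 h against mock (edgeR adjusted p = 1.41e-07) and by 1.42 ± 0.11 from 6 h to 24 h, and is with CYP82C2 one of the 2 members that rose between the time points. Per length, the ratio of SOT16 to SOT18 was 4.24 to 5.87 in mock, 6.94 to 8.46 at 6 h and 1.27 to 1.81 at 24 h. SOT18 lies at chr1:27862814-27864193 on the forward strand, beside SOT16 at chr1:27864345-27865694 on the reverse strand, and MYB122 lies near both at chr1:27855578-27857598.

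Upstream sequences are shown for 4 members. Each is the 250 bases before the annotated gene start in TAIR10.1 (RefSeq), read on the strand of the gene. SOT18, CYP81F2 and CYP82C2 were among the members with the largest changes in any comparison. CYP71B15 was not among them and was chosen after its values were seen. Its log2 changes were 1.496 at 6 h and 1.44 at 24 h against mock, and -0.06 from 6 h to 24 h (not called). Exon lengths in that annotation were the same as in the deposited tables for all 33 members. Motifs were searched on both strands: the W-box core TTGAC, which WRKY factors bind, and pairs of AGT or ACT spaced by 3 or 4 bases, a form of repeat known from targets of zinc finger proteins of the STZ type. A match is a description of the letters and says nothing of binding. The first window is that of SOT18 (chr1:27862564-27862813, forward strand), with its pairs of AGT at a spacing of 4 bases in capitals.
SOT18: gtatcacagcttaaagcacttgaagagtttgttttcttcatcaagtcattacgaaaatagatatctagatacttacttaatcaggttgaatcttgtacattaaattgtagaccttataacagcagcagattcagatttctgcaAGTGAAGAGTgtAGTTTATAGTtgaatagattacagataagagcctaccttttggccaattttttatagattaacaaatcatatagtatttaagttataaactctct
It holds 2 such pairs and no W-box core. Of the windows of all 27443 protein-coding genes, 3.60% hold at least 2 pairs at that spacing.

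Of the 6 genes that modify the indole ring, 3 were lower and 1 higher than mock at 24 h, after 3 rises and 0 falls at 6 h. By share, more fell among the acetaldoxime-forming genes (2 of 2) and the MYB regulators (2 of 3). CYP81F1 to CYP81F4 hydroxylate the ring, CYP81F2 at a ring carbon and CYP81F4 at the ring nitrogen, and the methyltransferases IGMT1 and IGMT2 turn the hydroxyl into a methoxy group. CYP81F2 (AT5G57220) was at 15.1, 22.5 and 21.4 CPM in mock, 60.8, 61.8 and 49.3 CPM at 6 h and 8.28, 7.28 and 3.80 CPM at 24 h. No groups overlapped. It rose by 1.54 ± 0.20 at 6 h (edgeR adjusted p = 0.000133) and fell by 1.60 ± 0.23 at 24 h (edgeR adjusted p = 6.05e-05), and its fall of -3.15 ± 0.23 between the time points was the largest among the members.

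The window upstream of CYP81F2 (chr5:23187590-23187839, forward strand) is given with W-box cores in capitals, which on the opposite strand read as GTCAA.
CYP81F2: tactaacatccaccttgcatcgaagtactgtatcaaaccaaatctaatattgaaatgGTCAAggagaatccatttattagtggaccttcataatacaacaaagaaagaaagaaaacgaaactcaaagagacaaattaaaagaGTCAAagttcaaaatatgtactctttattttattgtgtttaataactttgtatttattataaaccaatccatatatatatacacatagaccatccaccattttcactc
It holds 2 cores, and 14.1% of the windows of all genes hold 2 or more. The window also holds 1 pair of AGT at a spacing of 3 bases, which overlaps the second core.

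CYP81F4 (AT4G37410) was the most abundant member per length in all 3 groups, at 1020 ± 32.1, 1366 ± 12.9 and 306 ± 36.8 RPKM (SD, n = 3). It was at 1712, 1836 and 1825 CPM in mock, 2430, 2487 and 2401 CPM at 6 h and 485, 612 and 602 CPM at 24 h. The 6 h libraries were above all mock libraries, by 0.45 ± 0.10 on the log2 scale, under the fold limit, and the fall at 24 h was -1.66 ± 0.10 (edgeR adjusted p = 5.25e-08). The span of CYP81F4 from gene start to gene end is overlapped by an antisense gene, AT4G37409, and 30.2% of the reads of CYP81F4 were counted as unique. Overlap of exons was not examined. The spans of ASA1, ASB1, TRP1, IGPS, SOT18, CYP81F1 and CYP71A13 are also overlapped by other genes, with at least 91.7% of their reads unique. Whether counting used the strand is not stated, and reads of CYP81F4 and AT4G37409 therefore cannot be told apart. The fall of CYP81F4 at 24 h against mock was called under all 22 alternative settings, unique reads alone among them. With every library kept, its log2 change in these settings was -1.77 to -1.63. With unique reads alone the counts of members called were the same as with all reads.

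CYP81F1 and CYP81F3 lie near CYP81F4 on chromosome 4. CYP81F1 (AT4G37430) rose at both times, from a mean of 18.9 ± 1.38 CPM to 35.3 ± 4.71 and 37.0 ± 0.896 CPM (SD, n = 3), with log2 changes of 0.90 and 0.97. CYP81F3 (AT4G37400) stayed between 20.4 and 40.4 CPM in all libraries and was not called, with log2 changes of 0.41 and -0.02 against mock and -0.43 from 6 h to 24 h, which became -0.62 and was called without replicate 3 at 24 h.

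The methyltransferase pair also differed. IGMT1 (AT1G21100) was at 405, 547 and 579 CPM in mock, 394, 464 and 466 CPM at 6 h and 81.9, 120 and 111 CPM at 24 h. It overlapped between mock and 6 h and was far lower in every 24 h library, with a log2 change of -2.29 ± 0.16 (edgeR adjusted p = 1.80e-07). IGMT2 (AT1G21120) was at 9.64, 11.7 and 13.3 CPM in mock, 38.1, 31.7 and 26.2 CPM at 6 h and 10.7, 10.4 and 6.40 CPM at 24 h, that is, high in the 6 h libraries alone. It rose by 1.47 ± 0.19 at 6 h (edgeR adjusted p = 9.82e-05) and fell by 1.80 ± 0.19 from 6 h to 24 h. In mock, IGMT2 had only 0.0227 to 0.0252 times the RPKM of IGMT1. The coding sequences of IGMT1, IGMT2 and the nearby IGMT3 are 82.0% to 93.0% identical in pairs, but 98.6% of the reads of IGMT1 and 93.1% of those of IGMT2 were unique.

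**Figure D2:**
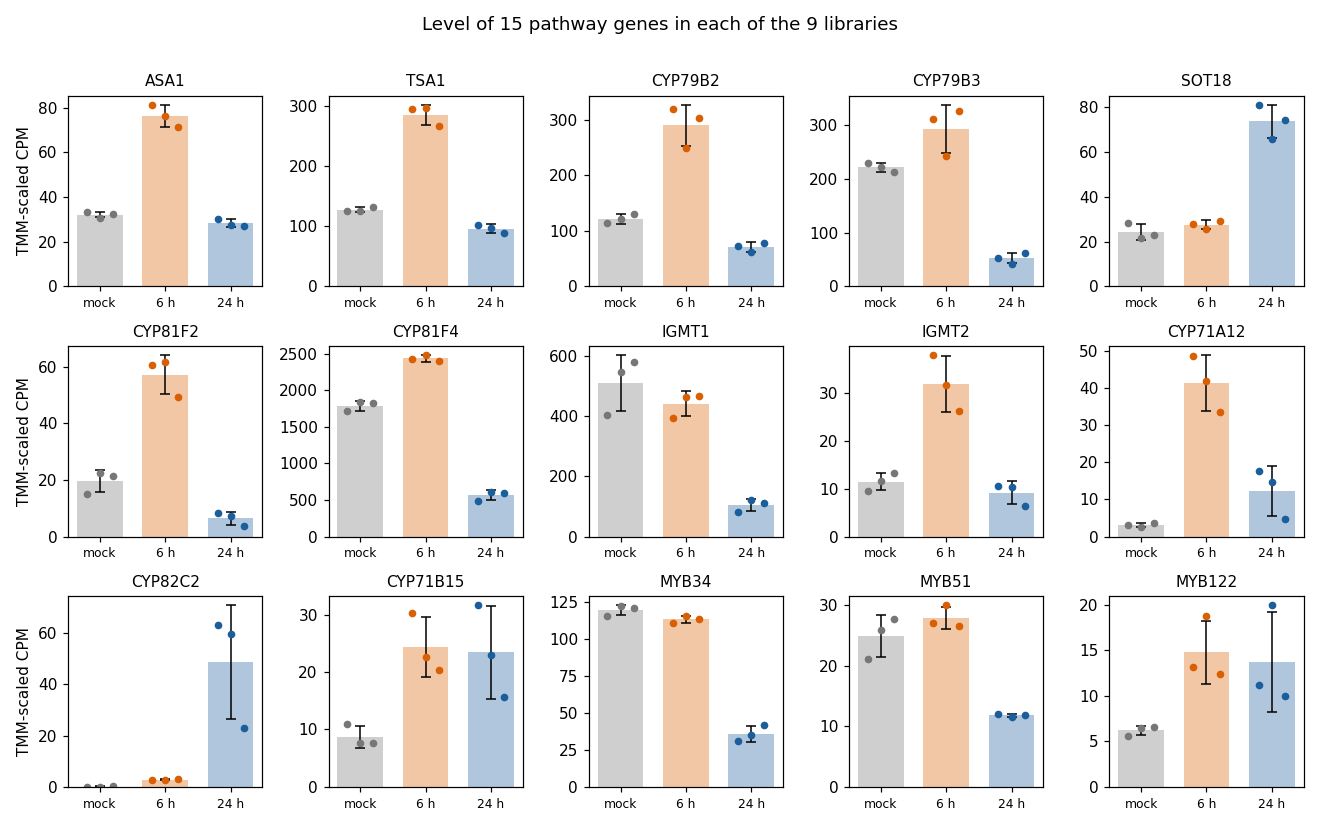
TMM-scaled CPM (vertical axis, from 0) of 15 pathway genes in the 3 mock, 3 6 h and 3 24 h libraries; points are libraries in the order of replicates 1 to 3, bars are means and error bars are SD. ASA1, TSA1, CYP79B2, CYP81F2, IGMT2 and CYP71A12 peak at 6 h, SOT18 and CYP82C2 are highest at 24 h, and CYP81F4, IGMT1, MYB34 and MYB51 are lowest at 24 h.

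The branch to camalexin and related nitriles was the only one in which all tested genes were called higher than mock at both times. CYP71A12 (AT2G30750), which converts indole-3-acetaldoxime to indole-3-acetonitrile, was at 3.02, 2.65 and 3.75 CPM in mock, 48.6, 41.8 and 33.5 CPM at 6 h and 17.6, 14.6 and 4.62 CPM at 24 h. All treated libraries were above mock, but replicate 3 at 24 h only slightly so. The log2 change was 3.71 ± 0.38 at 6 h, or 13.1-fold (edgeR adjusted p = 2.03e-05), 1.96 ± 0.39 at 24 h (edgeR adjusted p = 0.00075) and -1.75 ± 0.33 between the time points.

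Its neighbour CYP71A13 (AT2G30770), which catalyses the same reaction and is 90.4% identical to it in coding sequence, was too low to be tested. It had 0, 0 and 1 read in mock, 1, 2 and 0 reads at 6 h and 19, 9 and 4 reads at 24 h. Scaled for library size, the 32 reads at 24 h against 1 in mock gave a ratio of 36.7 with a 95% exact interval of 6.14 to 1496, and the 3 reads at 6 h gave a ratio of 3.22 with an interval of 0.258 to 169. These intervals cover counting error only.

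CYP71B15 (AT3G26830), also known as PAD3, which catalyses the last steps of camalexin synthesis, was at 10.9, 7.55 and 7.56 CPM in mock, 30.2, 22.6 and 20.3 CPM at 6 h and 31.7, 23.0 and 15.6 CPM at 24 h. Both treated groups were above mock without overlap and overlapped with each other. The log2 changes were 1.496 ± 0.24 at 6 h (edgeR adjusted p = 0.000568) and 1.44 ± 0.24 at 24 h (edgeR adjusted p = 0.000231). The window upstream of CYP71B15 (chr3:9887667-9887916, forward strand) is shown with AGT or ACT pairs at a spacing of 4 bases in capitals.
CYP71B15: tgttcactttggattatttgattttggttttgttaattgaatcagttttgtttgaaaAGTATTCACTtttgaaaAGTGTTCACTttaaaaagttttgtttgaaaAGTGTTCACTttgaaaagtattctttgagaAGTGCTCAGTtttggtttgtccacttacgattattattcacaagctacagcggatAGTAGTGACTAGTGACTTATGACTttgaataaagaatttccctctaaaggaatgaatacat
It holds 8 such pairs, some of which overlap, and no W-box core. CYP71B15 was the 1 gene of 27443 whose window holds 8 or more, but this limit was set at its own count. The value describes this window and was not tested.

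CYP82C2 (AT4G31970), which hydroxylates indole-3-carbonyl nitrile to a cyanogenic defence compound, had the largest change of all members. It was at 0.0368, 0.0680 and 0.189 CPM in mock, on 1, 2 and 6 reads, at 2.57, 2.84 and 2.93 CPM at 6 h and at 63.4, 59.7 and 23.0 CPM at 24 h. The 3 groups did not overlap, and replicate 3 at 24 h, which also had the lowest STZ level, was the lowest of its group. Over the 33 members this library was the lowest of its group for 16 and the highest for 7, CYP79B2, CYP79B3 and MYB34 among the latter. Such a lean was not particular to it. Mock replicate 1, with the lowest STZ level of its group, was the lowest for 19. For 18 it was 6 h replicate 3, which did not have the lowest STZ level of its group. Any part of the STZ level in this was not tested.

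The log2 change of CYP82C2 was 4.71 ± 0.77 at 6 h against mock (edgeR adjusted p = 0.000607), 8.84 ± 0.55 at 24 h against mock (edgeR adjusted p = 7.11e-08) and 4.13 ± 0.34 from 6 h to 24 h (edgeR adjusted p = 1.38e-06). The few mock reads limit the size against mock: without mock replicate 3 these values became 5.59 at 6 h and 9.72 at 24 h, and on the log2(RPKM + 1) scale, which compresses low values, they were 1.22 and 4.49. The 6 h change was not called by limma-voom, at 4.80 with an adjusted p of 0.0346. The window upstream of CYP82C2 (chr4:15462100-15462349, forward strand) has its W-box cores in capitals.
CYP82C2: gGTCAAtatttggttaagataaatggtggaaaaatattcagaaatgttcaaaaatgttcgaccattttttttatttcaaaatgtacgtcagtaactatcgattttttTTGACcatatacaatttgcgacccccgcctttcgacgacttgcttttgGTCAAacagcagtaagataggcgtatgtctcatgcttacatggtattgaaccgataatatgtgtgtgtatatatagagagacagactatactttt
It holds 3 cores on the 2 strands, a number reached by 3.38% of all windows, and no AGT or ACT pair at either spacing.

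Over all 33 members, 20 windows (60.6%) hold a W-box core, beside 44.9% of all windows, and 18 (54.5%) hold an AGT or ACT pair at a spacing of 3 or 4 bases, beside 36.9%. The G-box CACGTG was in 2 member windows (6.06%), beside 6.49% of all. At 6 h a W-box core was in 11 of the 20 members that rose and in 8 of the 12 that were not called, and an AGT or ACT pair in 12 and 6 of them. At 24 h against mock a W-box core was in 4 of 8 members that rose and 5 of 8 that fell, and an AGT or ACT pair likewise in 4 and 5. Of the 16 members not called in that comparison, 10 held a W-box core and 9 an AGT or ACT pair. From 6 h to 24 h a W-box core was in 12 of 17 members that fell and 6 of 13 that were not called, and an AGT or ACT pair in 11 and 6 of them.

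Among the 3 MYB regulators, the courses went in different directions. MYB34 (AT5G60890), the most abundant of them in mock, was at 116, 122 and 120 CPM in mock, 111, 115 and 114 CPM at 6 h and 31.2, 34.7 and 41.7 CPM at 24 h. It had a log2 change of -0.08 ± 0.09 at 6 h (edgeR adjusted p = 0.519) and fell by 1.74 ± 0.09 at 24 h (edgeR adjusted p = 2.12e-08). MYB51 (AT1G18570) was at 21.1, 25.9 and 27.7 CPM in mock, 27.1, 30.0 and 26.5 CPM at 6 h and 12, 11.5 and 11.9 CPM at 24 h.

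MYB51 thus overlapped between mock and 6 h and fell by 1.08 ± 0.10 at 24 h (edgeR adjusted p = 2.40e-06). MYB122 (AT1G74080) was at 5.63, 6.46 and 6.58 CPM in mock, 13.2, 18.8 and 12.4 CPM at 6 h and 11.2, 20.0 and 10.01 CPM at 24 h, above mock in every treated library. Its log2 changes were 1.25 ± 0.24 at 6 h (edgeR adjusted p = 0.00188) and 1.13 ± 0.24 at 24 h (edgeR adjusted p = 0.00144). Per length, MYB34 stood at 65.9 ± 1.48 RPKM in mock against 13.7 ± 1.78 for MYB51 and 3.91 ± 0.295 for MYB122 (SD, n = 3). At 24 h the means were 18.8 ± 3.31, 6.15 ± 0.375 and 8.08 ± 2.84 RPKM, where the means of MYB51 and MYB122 stood in the opposite order to mock but their libraries overlapped.

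The last pair of members acts on the finished compounds. PEN2 (AT2G44490), an atypical myrosinase that breaks down indole glucosinolates, was at 170 to 235 CPM in all libraries and was not called, with log2 changes of -0.02 at 6 h and -0.29 at 24 h. PEN3 (AT1G59870), a plasma membrane ABC transporter of indolic products, had a mean of 818 ± 57.8 CPM in mock and 802 ± 25.1 CPM at 6 h, and fell to 445 ± 34.1 CPM at 24 h (SD, n = 3). The fall was -0.88 ± 0.08 on the log2 scale (edgeR adjusted p = 2.08e-06).

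**Figure D3:**
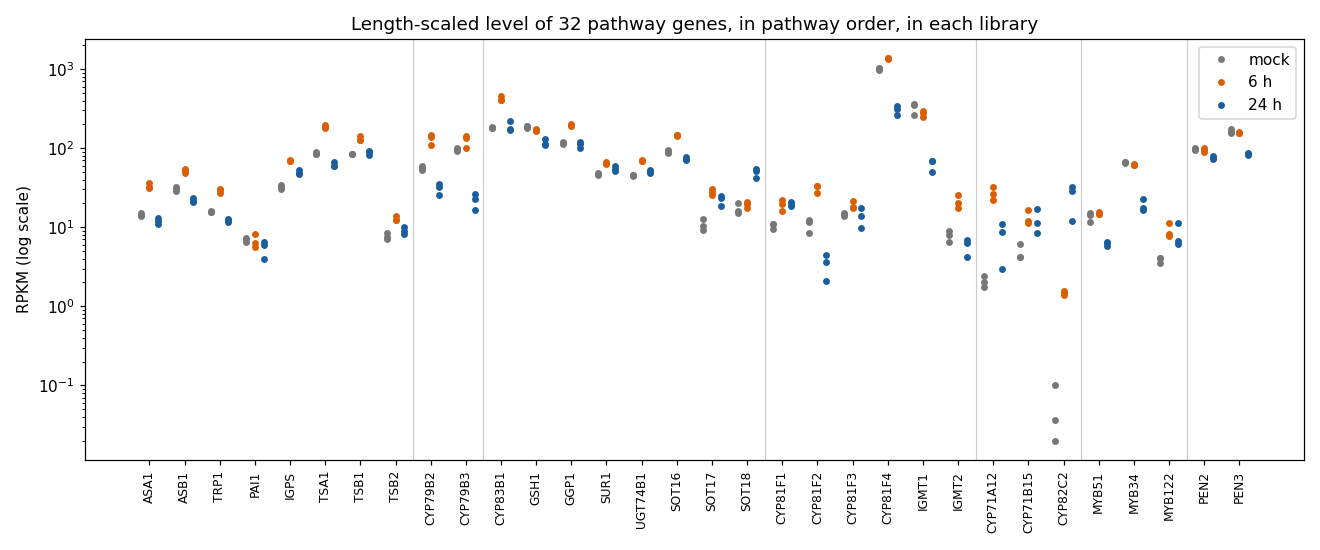
RPKM on a log axis of 32 pathway genes in pathway order, with 1 point for each of the 3 libraries of mock, 6 h and 24 h; CYP71A13, with at most 19 reads in a library, is not shown. CYP81F4 is the highest in every group and CYP82C2 the lowest in mock and at 6 h.

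The order of the members by RPKM also moved. In mock CYP81F4 was followed by IGMT1 at 324 ± 56.4 RPKM, then by GSH1 at 186 ± 4.46 and CYP83B1 at 181 ± 2.77 RPKM, whose libraries overlapped. At 6 h CYP83B1 came second at 427 ± 26.2 RPKM, ahead of IGMT1 at 275 ± 23.4 RPKM without overlap. At 24 h CYP83B1 was again second at 189 ± 25.4 RPKM, while IGMT1 had moved to rank 9 at 62.8 ± 11.1 RPKM. CYP82C2 moved from rank 32 of 33 in mock and at 6 h to rank 16 at 24 h (24.5 ± 10.9 RPKM), where its libraries overlapped with those of its neighbours in the order.

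Genes of related pathways are given for comparison, from lists of 86 genes in all. Of all tested genes 13.1% were called at 6 h and 35.5% at 24 h, both against mock. At 24 h the share was 36.4% for shikimate, 28.6% for other tryptophan, 36.8% for regulation, storage and breakdown and 30% for sulfur supply genes. These lie near or under the share of all genes. It was 88.9% for aliphatic and 71.4% for other indolic defence genes. At 6 h the lists ranged from 14.3% to 50%. The aliphatic glucosinolate genes, which build glucosinolates from methionine and share the late core enzymes, went further in the same direction with time: of 18 tested, 7 rose and 0 fell at 6 h, and 13 rose and 3 fell at 24 h against mock. Their median log2 change was 0.73 at 6 h and 1.76 at 24 h. At 24 h the chain elongation enzyme MAM1 was up by 4.17 ± 0.24 and the cytochrome P450 CYP79F2 by 3.53 ± 0.23 on the log2 scale, and from 6 h to 24 h the aminotransferase BCAT4 and the cytochrome P450 CYP83A1 rose by 4.41 and 3.88. CYP79F1, the counterpart of the CYP79B genes in this branch, was at a mean of 0.0323 CPM in mock and 0.0605 CPM at 6 h, and reached 7.61 CPM at 24 h. The mock mean rests on 0, 1 and 2 reads and the 6 h mean on 1, 2 and 2 reads. The regulator MYB28 rose at 6 h by 1.34 ± 0.15.

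The shikimate pathway, which supplies chorismate, had 3 of 11 genes higher and 0 lower at 6 h and 4 higher and 0 lower at 24 h, with 0 called between the times. DHS1, the first enzyme, rose by 1.04 and 0.87 on the log2 scale, EMB1144, a chorismate synthase, by 0.74 and 0.66, AT1G22410 by 0.68 at 6 h and the shikimate kinase SK2 by 0.68 at 24 h. Of 7 other tryptophan genes 1, PAI2, rose and 0 fell at 6 h, and 0 rose and 2, AT5G48220 and AT4G02610, fell at 24 h (log2 -1.37 and -0.66). The tryptophan synthase gene TSBtype2 fell from 6 h to 24 h by -0.62.

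Among 14 tested genes of other indolic defence steps, 4 rose and 3 fell at 6 h, and 3 rose and 7 fell at 24 h. The glutathione transferase GSTU4 rose by 2.56 and 3.41 and the transporter PDR12 by 2.91 at 6 h, while the kinase gene MPK3 fell by 0.93 at 6 h. IGMT3, next to IGMT1, fell by 2.17 at 24 h and the glutathione transferase GSTU13 by -1.52. From 6 h to 24 h IGMT5, a methyltransferase of the branch that starts with CYP81F4, fell by 1.88 and the cytochrome P450 CYP71B6 by -1.61.

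Of 19 tested genes of glucosinolate regulation, storage, transport and breakdown, 3 rose and 1 fell at 6 h, and 2 rose and 5 fell at 24 h. The importers GTR2 and GTR3 fell at 24 h (log2 -1.79 and -1.94), as did NSP1, a nitrile specifier protein (-1.77). GTR1 rose at 6 h by 0.73 and fell from 6 h to 24 h by -1.26, and the beta-glucosidase gene BGLU18 rose at 6 h by 2.52. The 10 genes of sulfur supply had 3 higher and 0 lower at 6 h and 2 higher and 1 lower at 24 h. The sulfate transporter gene SULTR1;2 fell by 1.94 at 24 h, while the APS reductase gene APR1 and the APS kinase gene APK1 rose by 1.59 and 0.99. At 6 h APK2, APR1 and the phosphatase gene SAL1 rose by 1.05, 0.73 and 0.62, and from 6 h to 24 h APK2 and the glutathione synthetase gene GSH2 fell by 1.13 and -0.91.

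**Figure D4:**
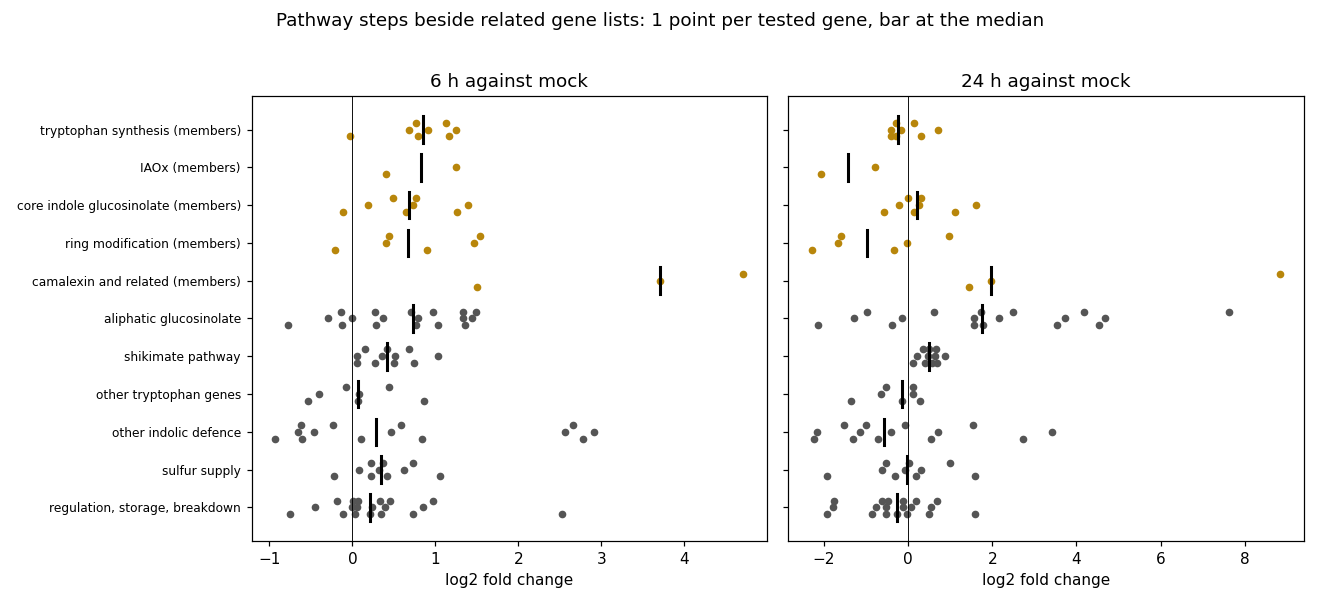
Log2 fold change against mock at 6 h and 24 h, with 1 point for each tested gene and a bar at the median of each list; gold points are pathway members and grey points the related lists. At 6 h the medians of the tryptophan, core, ring modification and aliphatic lists lie between 0.67 and 0.86, while at 24 h the ring modification genes are at -0.97 and the aliphatic genes at 1.76.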

How the data were processed

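Roots of a single estradiol-inducible STZ line were sequenced in 3 groups of 3 libraries, grouped by the labels, from stranded poly(A)-selected RNA. The sources differ on the portion of root taken. The labels call the libraries biological replicates, but separate sowings are not stated, so the p-values reflect only how these samples vary, part of which may be technical. Within groups, the chi-square of the counts per gene was 3.09 to 23.6, above sampling noise. Reads were mapped by the authors with CLC Genomics Workbench against TAIR10. The authors deposited, per gene, counts of total and of unique exon reads, RPKM and TPM. The deposited RPKM were used for levels between genes, and the deposited TPM were not used. Reads carry no molecular identifiers.

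Total exon counts of all 9 libraries were fitted together with the quasi-likelihood test of edgeR 4.0.16 under R 4.3.3, after filterByExpr (20272 genes left) and TMM scaling. The biological coefficient of variation was 0.0909. The SE was taken as the size of the log2 change divided by the root of the F statistic. On simulated counts for 6 h against mock, with 20086 genes in the fit, 36% of genes changed 1.5-fold, 94% changed 2-fold and 100% changed 4-fold were recovered, so that members with changes near 1.5-fold can be missed. Members and lists were chosen with earlier results of these data known. All 33 members are named. Values per library are given for the MYB genes, ASA1, CYP71A13, which the filter removed, and the 10 called members with a mean of at least 1 CPM and the largest change in any comparison, and also for TSA1, IGPS and CYP71B15, which were chosen after their values were seen. Of each related list, up to 3 called genes with the smallest p in each comparison are named. Upstream windows of 250 bases and coordinates are from TAIR10.1 (RefSeq); coding sequences were aligned globally with Biopython.

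Deviations from the group mean in same-numbered 6 h and 24 h libraries had r = 0.214, 0.335 and 0.152 for replicates 1 to 3. Those of mock with 6 h or 24 h had r between -0.05 and 0.15. Differently numbered libraries were not compared and the labels do not say what a number stands for. Whether the numbers pair samples therefore cannot be told. Alternatives were DESeq2 size factors, upper-quartile or total-count scaling, other filters, DESeq2 1.42.0, limma-voom (limma 3.58.1), fits of 2 groups, a replicate block, unique reads, the RPKM values in limma with a pseudocount of 1 or 0.1 (log2 scale, genes at 0.5 RPKM or more in 3 libraries), calls at an adjusted p under 0.05 alone, and leaving out each library.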

Additional observations from a re-analysis of the deposited data

Results flagged for a closer look

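For 19 of 32 tested members, or 59.4%, the change against mock at 24 h differed from that at 6 h. The share of all tested genes was 24.6%. Both are calls of the test of 24 h against 6 h (edgeR's quasi-likelihood test, by the thresholds above). The members are thus the ones already given as called between the time points. Each value here is the log2 change at 24 h minus that at 6 h, and both changes share the mock libraries. It is the same as the change from 6 h to 24 h. In tryptophan synthesis the difference was -1.43 for ASA1, -1.19 for ASB1, -1.20 for TRP1 and -1.57 for TSA1. For the acetaldoxime-forming genes it was -2.04 for CYP79B2, which was above mock at 6 h and below it at 24 h in every library, and -2.48 for CYP79B3. In the core steps it was -1.12 for CYP83B1, -0.77 for GGP1, -0.95 for SOT16 and 1.42 for SOT18. In ring modification it was -3.15 for CYP81F2, which likewise turned from above to below mock in every library, -2.11 for CYP81F4, -2.08 for IGMT1 and -1.80 for IGMT2. It was -1.75 for CYP71A12 and 4.13 for CYP82C2, the only positive value besides that of SOT18. Among regulators and transport it was -1.24 for MYB51, -1.66 for MYB34 and -0.85 for PEN3.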

How the results depend on the processing

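The counts of members called changed little with the processing. Over 22 alternatives each, 73 of the 96 tested log2 changes stayed on the same side of the thresholds throughout, 22 were called under at least 1 alternative and 1, CYP82C2 at 6 h, lost its call, under limma-voom. No called value changed sign, but 9 uncalled ones near 0 did. With an adjusted p under 0.05 and no fold limit, the number that fell at 24 h against mock was 15 in place of 8; the other counts stayed within 1.5 times. With the replicate block the counts were 20 higher and 0 lower at 6 h, 8 and 8 at 24 h and 2 and 17 between the time points, as without it. Leaving out 1 library gave 20 higher and 0 lower at 6 h, 8 to 9 higher and 8 to 9 lower at 24 h, and 2 to 3 higher and 17 to 18 lower between the time points; without replicate 3 at 24 h they were 20 and 0, 9 and 9, and 3 and 18, and without replicate 2 at 6 h 20 and 0, 9 and 8, and 3 and 17. Chi-square per gene was 14.7 and 13.3 between replicate 2 and the other 6 h libraries, which differed from each other by 4.76, and 15.1 to 23.6 among the 24 h libraries. Upper-quartile scaling moved the median of all genes to -0.12 in both 24 h comparisons. Depth limits CYP71A13, the mock level of CYP82C2 and the mock and 6 h levels of CYP79F1. No groups of 4 or more libraries exist, so single outlying libraries were not tested for.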
